A study of Mus musculus with 9 samples.

Results

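Neutrophil output from the bone marrow is set by colony-stimulating factors, and the receptors for these factors, with the JAK kinases, STAT transcription factors and SOCS3 inhibitor that act after them, were examined in sorted mouse neutrophils. The genes were chosen by symbol, as Csf3r, Csf2ra, Csf2rb, Csf2rb2, Jak1, Jak2, Stat3, Stat5a, Stat5b and Socs3. All 10 were listed in the table of 7197 genes, and all 10 passed the minimum mean of 10 normalized counts that left 6673 genes for testing.

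Granulocyte colony-stimulating factor (G-CSF) binds the receptor encoded by Csf3r, the main signal for granulocyte production in the marrow, and this receptor acts mostly through JAK kinases and STAT3. Granulocyte-macrophage colony-stimulating factor (GM-CSF) binds a receptor made of a specific alpha chain and a beta chain that is shared with the receptors for interleukin-3 and interleukin-5, and this receptor acts mostly through JAK2 and STAT5. SOCS3 is induced by STAT3, binds the G-CSF receptor and JAKs, and restrains the signal.

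The samples were 5 Rragc+/+ libraries, whose genotype the labels write as RagC S74N (+/+), and 4 RragcS74N/+ libraries, written as RagC S74N (KI/+), all from mice aged 2 months. RragcS74N/+ mice are heterozygous in the whole body for a knock-in allele of Rragc, which encodes the Rag GTPase subunit RagC, with a serine-to-asparagine change that makes the protein signal nutrient sufficiency to the kinase complex mTORC1, and with further silent changes. Cells were sorted from bone marrow as positive for CD45, CD11b and Ly6G. The labels name no individual mice, so the p-values measure the spread between these libraries, and replicate numbers only name libraries and pair none of them. Reads at the 3′ end of Rragc lie outside the edit and checked no label.

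Reads recovered over the listed genes numbered from 1214295 to 1973957 per library. The 3 sorting markers were all listed, with summed values of 4963 to 5838 normalized counts in Rragc+/+ and 4972 to 6159 in RragcS74N/+, and so were all 8 markers of mature neutrophils, at 32990 to 41300 and 29870 to 49230. Of the markers of T and NK cells, platelets and primary granules, 0 of 7, 0 of 4 and 0 of 5 were listed. Rragc+/+ replicate 2 stood apart from the other libraries, with a mean Spearman correlation of 0.891 with the rest against 0.929 to 0.951 for the others. In bulk RNA, fewer cells of a kind and less RNA per cell cannot be told apart.

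The question was whether the receptor and JAK-STAT genes differed between genotypes in young animals. At an adjusted p-value under 0.05 in limma 0 of the 10 genes passed, as did 0 of all genes tested (0%). At an unadjusted p-value under 0.05 in limma 1 of the 10 passed, Csf2rb2, against 5.81% of all genes in either direction and 2.01% in the higher direction. By sign, 5 of the 10 were higher and 5 lower in RragcS74N/+, with a median log2 difference of -0.05, against 0.02 over all genes tested. The median size of the difference, without its sign, was 0.14 for the 10 genes and 0.21 for all genes tested. For 0 of the 10 genes did the libraries of the genotypes fail to overlap, against 1.69% of all genes tested. Two-sided limma tests on log2(value + 1) gave these p-values, a scale that understates the differences of low genes, and edgeR and DESeq2 on the recovered reads also called 0 genes, with 460 and 447 at an unadjusted p-value under 0.05 against 388 for limma.

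**Figure D1:**
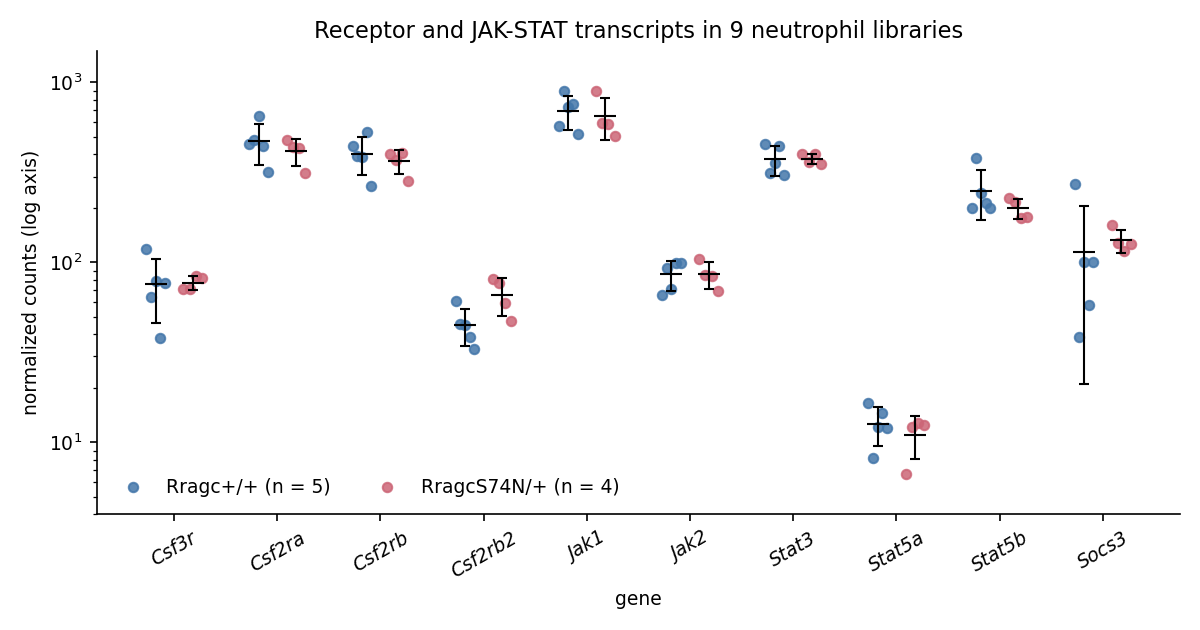
Normalized counts of the 10 genes on a log axis, 1 point per library, with bars for the mean and SD of 5 Rragc+/+ and 4 RragcS74N/+ libraries. The genotypes overlap for every one of the 10 genes, and the Rragc+/+ libraries spread most for Socs3, from 38.6 to 273.

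**Figure D2:**
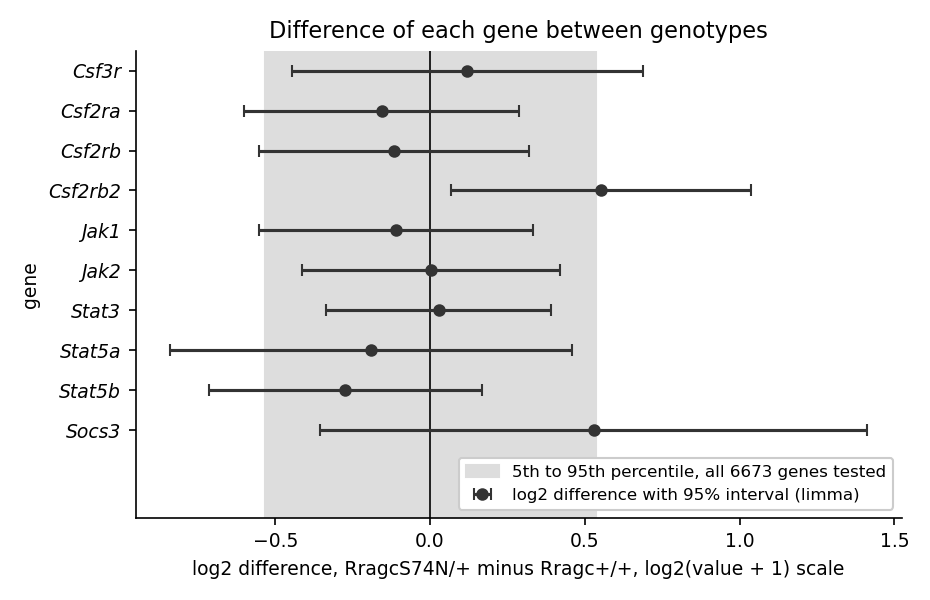
Log2 difference of each gene, RragcS74N/+ minus Rragc+/+, with its 95% interval from limma, over a grey band from the 5th to the 95th percentile of all 6673 genes tested (-0.53 to 0.54). The interval of Csf2rb2, 0.07 to 1.04, is the one of the 10 that lies apart from 0.

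The 10 transcripts differed widely in normalized counts. Values were not divided by gene length, because 3′-end libraries give about 1 fragment per transcript, and they are compared here as normalized counts. How fully the 3′ end of each gene was captured was not measured, so the order is one of counts. Over all 9 libraries Jak1 was highest, at 673 ± 151 (SD), and above the next gene, Csf2ra (446 ± 99.9), in 9 of 9 libraries. Csf2rb (386 ± 78.7) and Stat3 (376 ± 52.5) followed, with Csf2rb above Stat3 in 6 of 9 libraries, so this pair did not differ beyond its spread. Stat5b (227 ± 62) lay above Socs3 (122 ± 67.5) in 8 of 9 libraries. Socs3, Jak2 (85.8 ± 14.4) and Csf3r (76.2 ± 21.3) were close neighbours, with Jak2 above Csf3r in 5 of 9. Csf2rb2 (54.2 ± 16.7) was above Stat5a (11.9 ± 2.97), the lowest, in every one of the 9 libraries.

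Among the receptors, Csf3r, which encodes the G-CSF receptor, measured 119, 64.3, 78.7, 37.8 and 77.2 normalized counts in Rragc+/+ replicates 1 to 5 and 71.6, 71.2, 84.4 and 81.5 in RragcS74N/+ replicates 1 to 4. Both the highest and the lowest library were Rragc+/+, and the 4 RragcS74N/+ libraries lay between them. The genotype means were 75.4 ± 29.5 (SD, n = 5) and 77.2 ± 6.77 (SD, n = 4), with a log2 difference of 0.12 (SE 0.26, limma adjusted p = 0.891). The 95% interval of the fold ran from 0.734 to 1.61, so a fold within these bounds could not be told from none, and without Rragc+/+ replicate 4 the log2 difference was -0.10.

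Csf2ra, which encodes the GM-CSF-binding alpha chain, measured 458, 481, 653, 442 and 317 normalized counts in Rragc+/+ replicates 1 to 5 and 481, 435, 434 and 315 in RragcS74N/+ replicates 1 to 4. Rragc+/+ replicate 3 was highest, and the lowest library of each genotype was nearly equal. The means were 470.3 ± 120.5 (SD, n = 5) and 416 ± 71.1 (SD, n = 4), with a log2 difference of -0.16 (SE 0.21, limma adjusted p = 0.815).

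Csf2rb, which encodes the beta chain common to the receptors for GM-CSF, interleukin-3 and interleukin-5, measured 443, 389, 387, 528 and 265 normalized counts in Rragc+/+ replicates 1 to 5 and 401, 372, 407 and 283 in RragcS74N/+ replicates 1 to 4. The RragcS74N/+ libraries lay within the Rragc+/+ range. The log2 difference was -0.12 (SE 0.20, limma adjusted p = 0.862), with a 95% interval of the fold from 0.682 to 1.25.

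Csf2rb2 is the close paralog of Csf2rb found in mice and encodes a beta chain that serves interleukin-3 alone. It measured 61.3, 45.6, 45, 38.6 and 33.1 normalized counts in Rragc+/+ replicates 1 to 5 and 80.9, 77.3, 59.5 and 47 in RragcS74N/+ replicates 1 to 4, from 33 to 122 reads per library. RragcS74N/+ replicates 1 and 2 lay above every Rragc+/+ library, while replicates 3 and 4 lay below Rragc+/+ replicate 1, so the genotypes overlapped. The means were 44.7 ± 10.6 (SD, n = 5) and 66.2 ± 15.8 (SD, n = 4), with a log2 difference of 0.55 (SE 0.23, limma unadjusted p = 0.0280, adjusted p = 0.713). The difference was positive in each alternative run, with an adjusted p-value from 0.383 to 0.994 in limma, edgeR or DESeq2. Its unadjusted p-value was over the threshold without Rragc+/+ replicate 4 (0.0599) or 5 (0.0663), without RragcS74N/+ replicate 1 (0.0870) or 2 (0.0876), and when trends on the base composition (GC) of 3′ ends were removed (0.0527), all in limma. In that last fit 3.89% of all genes had an unadjusted p-value under 0.05.

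Csf2rb2 and Csf2rb are neighbours on chromosome 15, and reads could be split between near-identical copies. In the last 500 bases of their transcripts, 0 of 451 windows of 50 bases were identical between the pair, and 31 of 451 (6.87%) matched with up to 3 mismatches. The log2 ratio of Csf2rb2 to Csf2rb, in which library scaling nearly cancels, was -2.83, -3.07, -3.08, -3.74 and -2.96 in Rragc+/+ replicates 1 to 5 and -2.30, -2.25, -2.75 and -2.57 in RragcS74N/+ replicates 1 to 4. Every RragcS74N/+ library was above every Rragc+/+ library, with means of -2.47 ± 0.24 (SD, n = 4) and -3.14 ± 0.35 (SD, n = 5) and a difference of 0.67. As in the other log2 ratios here, 1 was first added to each value. Adding 0.5 or 5 instead gave differences of 0.67 and 0.63. The ratio to Csf2rb was higher without overlap in RragcS74N/+ for 5 of the 6672 other genes tested (0.0749%), with Csf2rb2 itself among them. This share is no measure of chance, because the division gives genes that do not vary with Csf2rb its own spread. Csf2rb2 tended to vary with Csf2rb once genotype means were removed (Pearson r = 0.56, Spearman rho = 0.47). Without the division, 0.674% of all genes tested were higher without overlap, and Csf2rb2 overlapped. As a share of the reads of the pair, Csf2rb2 took 6.81% to 12.2% in Rragc+/+ and 12.8% to 17.2% in RragcS74N/+. The nearest libraries were Rragc+/+ replicate 1 at 12.2% (exact 95% interval 9.93% to 14.7%) and RragcS74N/+ replicate 3 at 12.8% (10.2% to 15.7%), whose intervals overlap. These intervals cover counting error only, and the ratio was formed with earlier results known, so it is given as a description without a test.

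**Figure D3:**
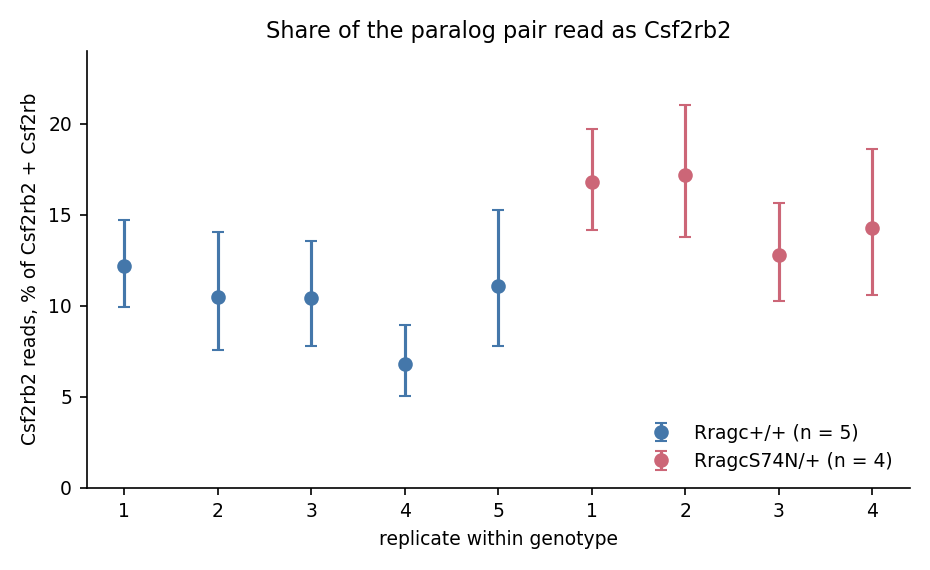
Reads of Csf2rb2 as a percentage of the reads of Csf2rb2 and Csf2rb together, 1 point per library, with exact 95% binomial intervals for counting error. The 4 RragcS74N/+ points lie at 12.8% to 17.2% and the 5 Rragc+/+ points at 6.81% to 12.2%, with Rragc+/+ replicate 4 lowest.

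Transcripts of other cells that carry these receptors varied between the same libraries. Eosinophils depend on interleukin-5, and 5 of 10 eosinophil and basophil markers were listed, with summed values of 60 to 162 normalized counts in Rragc+/+ and 63 to 277.5 in RragcS74N/+. RragcS74N/+ replicates 2 and 4 were highest, at 277.5 and 265, followed by Rragc+/+ replicate 5 at 162, and of these replicate 2 was high and the other libraries low in Csf2rb2 for their genotype. Epx, the eosinophil peroxidase, ran from 0.937 to 20.1 in Rragc+/+ and from 2.65 to 31.5 in RragcS74N/+. Of the 4 tested markers 3 were higher by sign in RragcS74N/+, with a median log2 difference of 0.95, and 1 had an unadjusted p-value under 0.05 in limma (25%, against 5.81% of all genes). This was Prg2, a granule protein of eosinophils, with a log2 difference of 1.38 (limma unadjusted p = 0.0394, adjusted p = 0.713), beside 1.1 for Epx, 0.81 for Ear6 and -0.14 for Siglecf. Of the monocyte markers 2 of 8 were listed (Csf1r and Ly6c2), with sums of 2202 to 3420 and 2211 to 3990. Ly6c2, with a log2 difference of 0.0008, made up most of these sums. Csf1r, which encodes another colony-stimulating factor receptor, spanned 85.2 to 339 normalized counts among Rragc+/+ libraries, highest in replicate 2. The RragcS74N/+ libraries overlapped them, at 71.1 to 133. The log2 difference of Csf1r was -0.66 (SE 0.34, limma unadjusted p = 0.0719, adjusted p = 0.713). Of the B cell markers 2 of 8 were listed, with sums of 90 to 146 and 86.2 to 132. Of the erythroid markers 6 of 7 were listed, with sums of 1090 to 5585 and 378 to 2147, and 5 of the 6 were lower in RragcS74N/+ at an unadjusted p-value under 0.05 in limma, against 3.81% of all genes in that direction, 4 of them globin genes whose near-identical copies make the separate counts uncertain. The part of any of these cells in the Csf2rb2 result was not tested.

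The kinases came next. Jak1, a kinase of many cytokine receptors, measured 575, 893, 726, 760.5 and 519 normalized counts in Rragc+/+ replicates 1 to 5 and 894, 598, 590 and 506 in RragcS74N/+ replicates 1 to 4. One library of each genotype was near the top of the range, and the others overlapped. The log2 difference was -0.11 (SE 0.21, limma adjusted p = 0.874).

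Jak2, the kinase bound to the common beta chain, measured 65.9, 93.5, 71.2, 99.7 and 99.3 normalized counts in Rragc+/+ replicates 1 to 5 and 104, 85.4, 84.4 and 69 in RragcS74N/+ replicates 1 to 4. The means were nearly equal, at 85.9 ± 16.1 (SD, n = 5) and 85.7 ± 14.4 (SD, n = 4). Its log2 difference was 0.0030 (SE 0.19, limma adjusted p = 0.998), with a 95% interval of the fold from 0.750 to 1.34, and its sign changed with scaling to the same total (-0.0058) or by TMM (-0.0049).

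Of the STAT genes, Stat3, which encodes the factor that follows the G-CSF receptor, measured 455, 313, 357, 443 and 305 normalized counts in Rragc+/+ replicates 1 to 5 and 398, 360, 400 and 351 in RragcS74N/+ replicates 1 to 4. All 4 RragcS74N/+ libraries lay inside the Rragc+/+ range. Stat3 had the narrowest interval of the 10 genes, with a log2 difference of 0.03 (SE 0.17, limma adjusted p = 0.967) and a 95% interval of the fold from 0.792 to 1.31.

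Stat5a and Stat5b encode the closely related factors that follow the GM-CSF and interleukin-3 receptors, and Stat5b, Stat5a and Stat3 are neighbours on chromosome 11. Stat5b measured 202, 382, 243, 213 and 200.5 normalized counts in Rragc+/+ replicates 1 to 5 and 227, 217, 177 and 179 in RragcS74N/+ replicates 1 to 4. Rragc+/+ replicate 2, the library that stood apart, was far above the other 8, and RragcS74N/+ replicates 3 and 4 were the lowest. The log2 difference was -0.27 (SE 0.21, limma adjusted p = 0.729), and -0.11 without Rragc+/+ replicate 2.

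Stat5a was read 7 to 25 times per library and measured 16.5, 8.18, 12.2, 14.5 and 12 normalized counts in Rragc+/+ replicates 1 to 5 and 6.63, 12.2, 12.8 and 12.5 in RragcS74N/+ replicates 1 to 4. RragcS74N/+ replicate 1 and Rragc+/+ replicate 2 were low, and the other 7 libraries lay close together. The log2 difference was -0.19 (SE 0.30, limma adjusted p = 0.852), and 0.02 without RragcS74N/+ replicate 1. As a share of the reads of the Stat5 pair, Stat5a took 2.10% to 7.55% in Rragc+/+ and 2.84% to 6.75% in RragcS74N/+, with 0 of 451 windows alike between the transcript ends at up to 3 mismatches. The log2 ratio of Stat5b to Stat5a had means of 4.17 ± 0.72 (SD, n = 5, Rragc+/+) and 4.09 ± 0.56 (SD, n = 4, RragcS74N/+), a difference smaller than the spread between libraries.

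Socs3, the inhibitor of the G-CSF receptor and its JAKs, measured 273, 38.6, 100.3, 57.9 and 100.3 normalized counts in Rragc+/+ replicates 1 to 5 and 160.5, 128, 115 and 127 in RragcS74N/+ replicates 1 to 4. Rragc+/+ replicate 1 was far above all other libraries, and the other 4 Rragc+/+ libraries lay below all 4 RragcS74N/+ libraries. The means were 114 ± 93 (SD, n = 5) and 133 ± 19.5 (SD, n = 4), with a log2 difference of 0.53 (SE 0.41, limma adjusted p = 0.739) and a 95% interval of the fold from 0.782 to 2.66. Socs3 varied within genotype more than 96.4% of genes tested, by the residual SD on the log2 scale, against 71.1% for Csf3r and 12.8% for Stat3. Without Rragc+/+ replicate 1 the log2 difference was 0.92 (SE 0.28, limma unadjusted p = 0.0065, adjusted p = 0.501), in a fit in which 9.6% of all genes had an unadjusted p-value under 0.05. Without Rragc+/+ replicate 2 it was 0.22. With all 9 libraries, the log2 difference of Socs3 was smaller in edgeR, at 0.19 (edgeR unadjusted p = 0.653). In DESeq2 it was 0.21 (DESeq2 unadjusted p = 0.626).

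Relative to its receptor, the log2 ratio of Socs3 to Csf3r was 1.19, -0.72, 0.35, 0.60 and 0.37 in Rragc+/+ replicates 1 to 5 and 1.15, 0.84, 0.45 and 0.63 in RragcS74N/+ replicates 1 to 4. The genotypes overlapped, and the high Socs3 of Rragc+/+ replicate 1 stood beside the highest Csf3r. The difference of 0.41 between the means (0.77 ± 0.30, SD, n = 4, and 0.36 ± 0.69, SD, n = 5) was smaller than the spread between Rragc+/+ libraries.

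STAT dimers bind the palindrome TTCNNNGAA, which reads the same on both strands, and it was searched in RefSeq promoter windows of 300 bases (250 before and 50 after the start of a gene, assembly GRCm38.p6). Of the 10 genes 9 had a window, Csf2rb being the other one. Of their 11 windows 2 held the palindrome, in Socs3 and Csf2rb2, against 8.3% of all 32851 windows. Both are shown, as the only matches found, with the palindrome in capitals and 10 bases on each side, 5′ to 3′ on the minus strand of each chromosome.
Socs3, chr11:117969502-117969530, palindrome 154 bases before the start: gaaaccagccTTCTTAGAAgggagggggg
Csf2rb2, chr15:78305718-78305746, palindrome 15 bases before the start: gtgtccacaaTTCTGAGAAgcaagcaaag
A match describes the letters in a window and shows no binding, and genes without one may hold the palindrome elsewhere.

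How the 10 genes varied together was described over the 9 libraries after the genotype means were removed. Csf2rb and Stat3 were most alike (Pearson r = 0.80, Spearman rho = 0.90), followed by Jak1 and Stat5b (r = 0.74, rho = 0.73) and by Csf3r and Socs3 (r = 0.74, rho = 0.67). Stat5a and Stat5b were least alike (r = -0.78), with Stat5b highest in Rragc+/+ replicate 2, where Stat5a was low. These values share libraries and depth, 9 points are few, and no test was made of the 45 pairs.

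**Figure D4:**
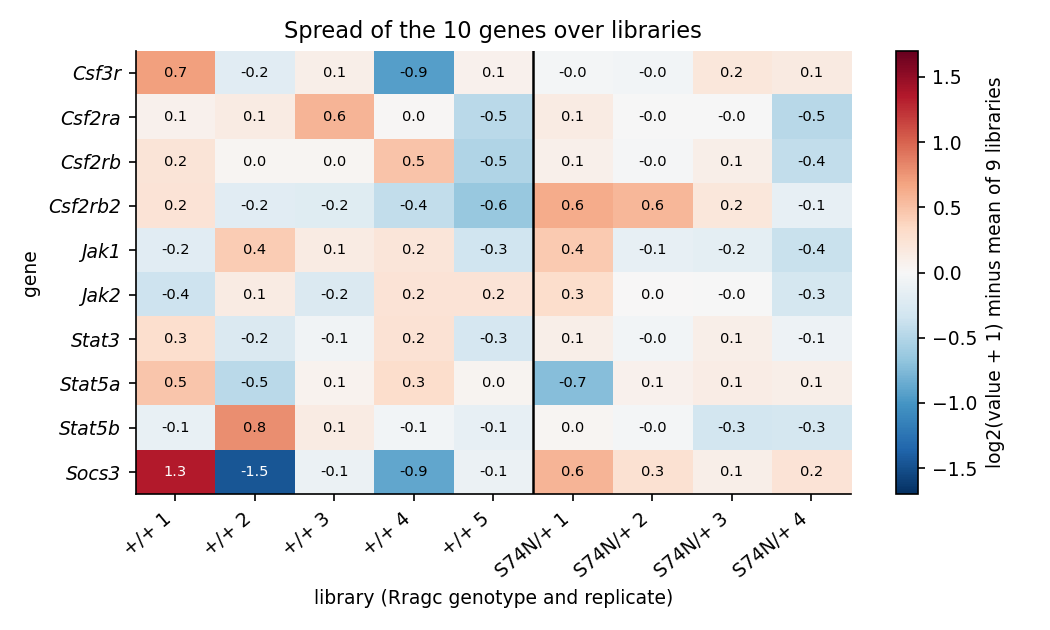
Deviation of each gene in each library from its mean over 9 libraries, on the log2(value + 1) scale, with the Rragc+/+ libraries left of the line. Socs3 has the largest deviations, 1.3 in Rragc+/+ replicate 1 and -1.5 in replicate 2, and Csf3r is high and low in Rragc+/+ replicates 1 and 4.

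Among 3474 genes whose mean reached 50, the pattern of Csf3r over libraries was most like those of Rassf3 (r = 0.97), Tmem140 (r = 0.92) and Lrrc8d (r = 0.91). Without Rragc+/+ replicates 1 and 4, the libraries farthest from its median, these values were 0.70, 0.67 and 0.87. The pattern of Socs3 was most like those of Rbms1 (r = 0.98), Zfp710 (r = 0.98) and Pnrc1 (r = 0.96), and 0.85, 0.82 and 0.80 without Rragc+/+ replicates 1 and 2. More genes were alike to Socs3 than to Csf3r, with 53 against 4 at r over 0.9. Rbms1 ran from 278 in Rragc+/+ replicate 2 to 630.3 in replicate 1, the same libraries at which Socs3 was lowest and highest.

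The other genes of the pathway were taken from lists of receptors, kinases, inhibitors, adaptors, regulated genes and ligands. These lists were chosen with earlier results of these data known, so their shares are descriptions. At an adjusted p-value under 0.05 in limma, 0 genes of any list passed, and for each gene named below at an unadjusted p-value under 0.05 the adjusted one was 0.713. At the unadjusted threshold 7 of the 66 listed genes tested passed (10.6%, against 5.81% of all genes). Among genes whose mean reached 50, where fewer listed genes were tested, the count was 4 (5.5% of all genes). It was 4 without Rragc+/+ replicate 2 (3.02%), 4 without RragcS74N/+ replicate 4 (3.37%), 16 without Rragc+/+ replicate 5 (13.7%) and 3 with GC trends removed (3.89%). In these alternatives, each percentage is the share of all genes tested in the same fit, not of the listed genes. Of 25 other cytokine receptors 14 were listed and 13 tested, of which 0 had an unadjusted p-value under 0.05 in either direction, with 5 higher and 8 lower by sign and a median log2 difference of -0.08. Their most abundant members were Tnfrsf1a, a receptor for tumour necrosis factor, and Ifnar2, a chain of the type I interferon receptor, with log2 differences of -0.08 and -0.08. Of 6 other JAKs and STATs 5 were tested and 0 had an unadjusted p-value under 0.05 in limma. Among them Stat6, which acts after the interleukin-4 receptor, had a log2 difference of -0.26.

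Of 21 other SOCS, PIAS and phosphatase genes, which restrain cytokine signals, 18 were listed and 16 tested, and 1 was higher at an unadjusted p-value under 0.05 in limma (6.25%, against 5.81% of all genes). This was Socs4, a little-read relative of Socs3, whose normalized counts were 16.9 ± 6.70 (SD, n = 5) in Rragc+/+ against 26.4 ± 6.73 (SD, n = 4), with a log2 difference of 0.65 (SE 0.30) and overlapping genotypes. Its unadjusted p-value was over the threshold in 9 of 19 alternatives, namely without Rragc+/+ replicate 1, 2 or 4, without RragcS74N/+ replicate 1 (0.133, the highest) or 4, with edgeR, DESeq2 or array quality weights, and with GC trends removed (0.0908). Cbl, a ubiquitin ligase that acts on activated receptors, had an unadjusted p-value of 0.164 in limma. All 4 RragcS74N/+ libraries, at 404 to 456, lay above the 5 Rragc+/+ libraries, at 323 to 398. Such a lack of overlap in the higher direction was found for 0.674% of all genes tested. The log2 difference of Cbl was 0.21, and 0.04 with GC trends removed. The abundant phosphatases Ptprc (CD45) and Ptpn1 had log2 differences of -0.16 and -0.19, and the median of the list was 0.01.

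Of 17 adaptors and kinases beside the receptors all were tested, and 1 was higher and 1 lower at an unadjusted p-value under 0.05 in limma (11.8%, against 5.81% of all genes). Sos1, a guanine nucleotide exchange factor that carries receptor signals to Ras, measured 20.4, 16.4, 22.5, 21.7 and 22.1 normalized counts in Rragc+/+ replicates 1 to 5 and 35.1, 39.7, 33.9 and 30.3 in RragcS74N/+ replicates 1 to 4. The genotypes did not overlap, as for 0.674% of all genes tested in the higher direction, and the log2 difference was 0.73 (SE 0.20, limma unadjusted p = 0.0027). Hax1, whose loss causes neutropenia in humans, lay at 30.9 to 45.6 in Rragc+/+ and 18.1 to 29.3 in RragcS74N/+, without overlap, as for 1.02% of all genes in the lower direction. Its log2 difference was -0.50 (SE 0.22, limma unadjusted p = 0.0371), and the unadjusted p-value was over the threshold in 5 of 19 alternatives, namely without Rragc+/+ replicate 2 (0.0781) or 5 (0.0680), without RragcS74N/+ replicate 3 (0.141), with GC trends removed (0.0563) and with DESeq2 (0.0601). By sign 12 of the 17 were lower, with a median of -0.18, and the abundant members Grb2, an adaptor, and Fgr, a Src-family kinase, had log2 differences of -0.32 and -0.19.

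Of 17 genes known to be regulated by STAT3 or STAT5, 15 were tested, and 4 (26.7%) had an unadjusted p-value under 0.05 in limma, all lower, against 3.81% of all genes in that direction. By sign 11 of 15 were lower, and the median log2 difference was -0.20. As the list was chosen with earlier results of these data known, the share of 26.7% is a description, and STAT activity was not tested. Ccnd2, which encodes cyclin D2, measured 70.5, 130, 69.4, 59.5 and 62.2 normalized counts in Rragc+/+ replicates 1 to 5 and 50.4, 39.7, 38.4 and 54.3 in RragcS74N/+ replicates 1 to 4. All 4 RragcS74N/+ libraries were below all Rragc+/+ libraries, as for 1.02% of all genes tested in the lower direction. The log2 difference was -0.72 (SE 0.24, limma unadjusted p = 0.0093).

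Cebpb, a transcription factor of emergency granulopoiesis, had normalized counts of 363 ± 52 (SD, n = 5) in Rragc+/+ against 251 ± 54 (SD, n = 4), with a log2 difference of -0.55 (SE 0.18, limma unadjusted p = 0.0103). Bcl3, a nuclear partner of NF-κB, measured 240 ± 79.7 (SD, n = 5) and 150 ± 27 (SD, n = 4), with a log2 difference of -0.63 (SE 0.24, limma unadjusted p = 0.0200). Pim1, a survival kinase, measured 411 ± 66.1 (SD, n = 5) and 316 ± 54.2 (SD, n = 4), with a log2 difference of -0.38 (SE 0.18, limma unadjusted p = 0.0499). The genotypes overlapped for these 3 genes. For Pim1 the unadjusted p-value was over the threshold in 10 of 20 alternatives, namely without Rragc+/+ replicate 1, 2, 3 or 4, without RragcS74N/+ replicate 1 or 4 (0.149, the highest), with no filter on low values, with the same total, without trended moderation and with array quality weights. For Bcl3 it was over the threshold without Rragc+/+ replicate 3 (0.0522) or RragcS74N/+ replicate 4 (0.0726). With GC trends removed, 2 of the 4, Ccnd2 and Pim1, passed the unadjusted threshold in limma. Cebpb then had a log2 difference of -0.35 (limma unadjusted p = 0.0555) and Bcl3 of -0.34 (limma unadjusted p = 0.0937). Socs3, a gene of the same regulation, had a difference of the opposite sign, and the abundant members Cebpd and Ccnd3 had log2 differences of 0.19 and -0.10.

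**Figure D5:**
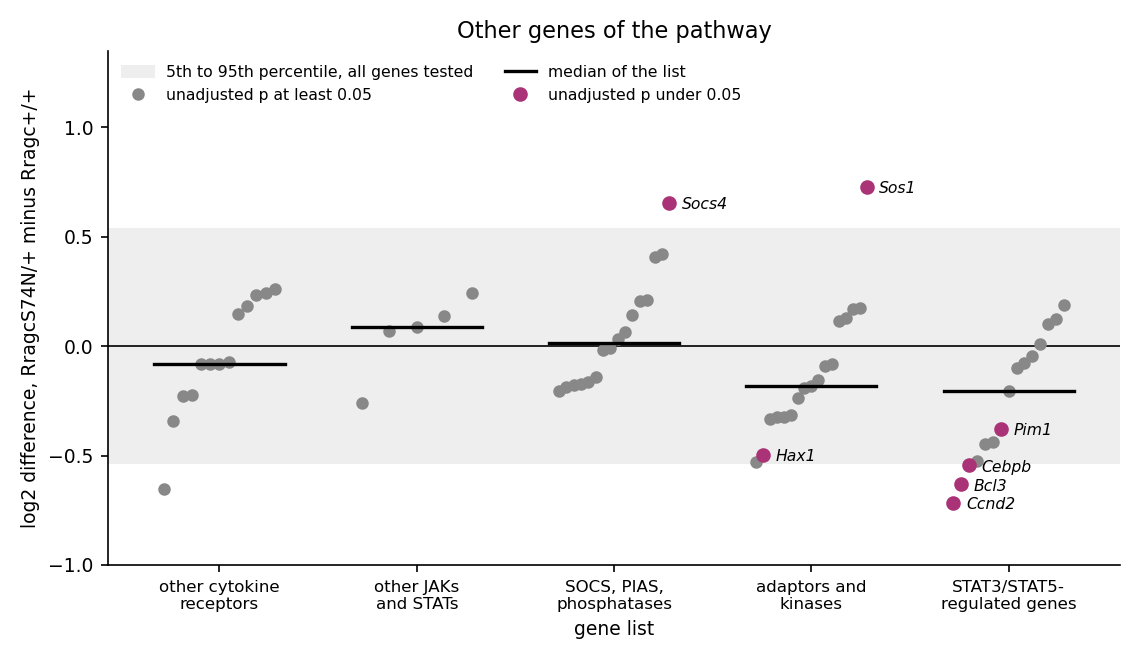
Log2 difference, RragcS74N/+ minus Rragc+/+, of each tested gene of 5 lists, with a line at the median of each list and a grey band from the 5th to the 95th percentile of all genes tested. Coloured points have an unadjusted p-value under 0.05 in limma. The 4 coloured points of the STAT-regulated list lie below 0, and none of the genes shown passed the adjusted threshold. The lists were chosen with earlier results of these data known.

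Of 12 ligands 1 was listed, Csf1, the macrophage colony-stimulating factor, which was below the minimum for testing. It measured 21.1, 3.51, 5.62, 4.82 and 11 normalized counts in Rragc+/+ replicates 1 to 5 and 2.65, 4.07, 2.26 and 5.23 in RragcS74N/+ replicates 1 to 4. The highest value was in Rragc+/+ replicate 1, the library with the highest Csf3r and Socs3.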

How the data were processed

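Neutrophil RNA from 5 Rragc+/+ and 4 RragcS74N/+ samples had been made into stranded 3′-end libraries by oligo-dT priming, with molecular identifiers in the second-strand primers. Alignment by the authors was to GRCm39, by TopHat2 (2.0.10) and Bowtie (1.0.0) with 20 multi hits allowed; they counted them by strand with HTSeq (0.6.1) on GENCODE and divided them by size factors of DESeq, versions being those of the submitters' processing notes. The deposited values are thus a signal, normalized counts per gene. Whether reads were collapsed by identifier is not given in the sources used here; if not, counting error understates the noise. The filter that chose the listed genes is not given either. Each value (100%) could be divided by the worth of 1 read to a whole number, the recovered reads. There were 0 columns without a sample. The study's text describes more RragcS74N/+ mice than the libraries with that label analysed here.

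Genes whose mean reached 10 entered limma (3.58.1, R 4.3.3) on log2(value + 1), trended, with genotype as the one term and Benjamini-Hochberg adjustment over all genes tested. edgeR (4.0.16) and DESeq2 (1.42.0) were run on recovered reads. Procedures were tested on simulated data. Other alternatives were pseudocounts of 0.5 and 5, filters, scalings, moderation, array weights and leaving out each library. Removal of each library's cubic trend on GC content of the last 500 transcript bases (GENCODE, GRCm38, 6556 tested genes) was added after the data were seen. The 10 genes, the pathway and marker lists and the tests were chosen with earlier results of these data known. From each pathway list, genes were named if their unadjusted p-value was under 0.05 or the genotypes did not overlap, with the 2 of highest mean, 1 of which is not reported here; for likeness, the 3 genes of highest Pearson r. Promoter windows and gene order came from RefSeq tables of GRCm38.p6, not the authors' assembly, and were matched by symbol; protein sequences were not used here. Secondary granule markers (6 of 6 listed) summed to 25410 to 33460 normalized counts in Rragc+/+ and 21450 to 34790 in RragcS74N/+.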

Additional observations from a re-analysis of the deposited data

Results flagged for a closer look

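Libraries lying apart within a genotype were sought by Dixon's test at the 95% level in 60 groups of values, and 6 were found. The nominal level of the test, for normal values, is 1 in 20 groups, or 3. The groups share libraries and genes, and some genes were chosen from these data, so 6 against 3 is a description. Stat5a was low in RragcS74N/+ replicate 1, at 6.63 normalized counts, with a gap of 0.902 of the range. Stat5b was high in Rragc+/+ replicate 2, at 382 (gap 0.767), and so was Ccnd2, at 130 (129.7, gap 0.844), in the library that stood apart over all genes. Socs3 was high in Rragc+/+ replicate 1, at 273 (gap 0.737). Stat6 was low in Rragc+/+ replicate 5, at 59.2 (gap 0.90). The log2 ratio of Csf2rb2 to Csf2rb was low in Rragc+/+ replicate 4, at -3.74 (gap 0.731), and the difference between genotypes in this ratio was 0.52 without that library.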

How the results depend on the processing

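No paired analysis was possible because no label numbers the replicates. The count of the 10 genes past the adjusted threshold was 0 in every alternative run. At an unadjusted p-value under 0.05 the count was 1 as reported, 0 with the GC trend removed, and from 0 (without Rragc+/+ replicate 4 or 5, or RragcS74N/+ replicate 1 or 2) to 2 (without Rragc+/+ replicate 1) with each library left out in turn. Of all genes, 388 had an unadjusted p-value under 0.05, or 191 at a mean of at least 50 (fewer genes tested), 769 with array quality weights and 255 with the GC trend removed, and 201 (without Rragc+/+ replicate 2) to 907 (without Rragc+/+ replicate 5) with each library left out. Listed pathway genes numbered 7, or 4 at a mean of at least 50 (fewer genes tested) and 3 with the GC trend removed, and 4 (without Rragc+/+ replicate 2 or RragcS74N/+ replicate 4) to 16 (without Rragc+/+ replicate 5) with each library left out. Over the 10 genes, 184 of 199 values kept their sign and 15 did not, and over 17 named pathway genes 333 of 337 kept it. Reversals outside the leave-one-out fits were Jak2, to -0.0058 with the same total, -0.0049 with TMM, -0.0032 with edgeR and -0.12 with the GC trend removed, Stat3, to -0.036 with array quality weights, and Tnfrsf1a (0.052) and Ccnd3 (0.10) with the GC trend removed. With each library left out, log2 differences ran from -0.10 to 0.31 for Csf3r, -0.26 to 0.0017 for Csf2rb, -0.094 to 0.10 for Jak2, -0.041 to 0.10 for Stat3, -0.33 to 0.016 for Stat5a, -0.15 to 0.025 for Ifnar2, and -0.0074 to 0.30 for Cebpd. The ratio of Csf2rb2 to Csf2rb ran from 0.52 to 0.76, that of Stat5b to Stat5a from -0.35 to 0.22, and that of Socs3 to Csf3r from 0.14 to 0.62. The causes were not tested. The GC correction was chosen after the data were seen. Stat5a was read 7 to 25 times per library, Csf2rb2 33 to 122 and Csf3r 47 to 181, which limits the precision of each.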
